A study of Mus musculus with 6 samples.

Results

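Astrocyte and Bergmann glia genes are 32 genes that mark astrocytes, the glial cells that take up transmitter, buffer ions and line vessels in the brain, and Bergmann glia, their radial relatives in the cerebellum. A member was a gene on that list named alone by the platform annotation of a probe row, and the row with the highest mean over the arrays stood for it. All 32 were measured, out of 22180 genes named this way on 41345 rows. They were named by 35 rows in all. The study measured total RNA from tissue labelled as whole hippocampus of male C57BL/6J mice, an inbred strain, on 6 Affymetrix whole-transcript arrays. The 3 ethanol arrays came from mice given ethanol at 2.5 g/kg in 0.15 M NaCl under the skin, with 2 doses, spaced by 2 hours, on postnatal day 4 and again on day 7. The 3 saline arrays came from littermates injected with saline on the same days. Each array held RNA pooled from 3 mice, so the spread between arrays is that between pools. The age at collection is given as 21 days in the sample characteristics and in the design text, and as day 70 in the treatment protocol.

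Astrocytes clear glutamate from synapses through sodium-driven transporters and turn it into glutamine, which is returned to neurons. They are coupled by gap junctions, and their endfeet on vessels are packed with water and potassium channels. After injury or inflammation they enlarge and raise intermediate filament proteins such as GFAP and vimentin, a state called reactive. Bergmann glia share most of this machinery and guide migrating granule neurons along their fibres in early postnatal life, when the injections were given.

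The defining astrocyte genes Gfap, Aqp4 and Slc1a3 had means of 9.80, 11.19 and 12.05 on the log2 scale over the 6 arrays, where the median of all genes was 7.10. The median of the 32 genes was 9.85, and all genes were ranked by mean value into 10 equal brightness bins. Of the 32 genes, 21 lay in the brightest bin and none in the 5 dimmest. Since probes bind with unequal strength, levels of separate genes are only a rough guide to abundance. That limit also holds for the bins and for the comparisons of levels below. The tissue label was checked against genes of hippocampal and of other neurons, and the levels went against a label of hippocampus alone. Genes of cerebellar neurons had a median level of 10.52 over 16 measured genes, with Gabra6, a granule cell receptor subunit, at 12.17 and Car8, a Purkinje cell gene, at 12.43. Lists of CA1, of CA3 and CA2 and of dentate granule neurons had medians of 7.26, 7.38 and 6.80, near the median of all genes. The tissue that the arrays held was not settled by these values, and the members' values are not described here as those of hippocampal astrocytes. For regional astrocytes, the telencephalic genes Lhx2 and Mfge8 stood at 6.96 and 9.37, and the transcription factor Emx2 at 5.28. The non-telencephalic gene Agt stood at 9.27, and the Bergmann glia gene Gdf10 at 10.46. The transthyretin gene Ttr of choroid plexus stood at 13.22, at 13.21 in ethanol and 13.23 in saline. In whole-tissue RNA, fewer cells of a type and less RNA per cell cannot be told apart.

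Setting ethanol beside saline addressed whether early exposure had left a lasting difference in the expression of these genes. Of the 32 genes, 27 had a higher mean in ethanol and 5 a lower one, and the median difference was 0.09 on the log2 scale. None passed the test: limma called 0 of the 32 at a Benjamini-Hochberg adjusted p under 0.05, where it called 0% of all rows, and the members' adjusted p ranged from 0.857 to 0.998. At an unadjusted p under 0.05 there were 3 members, Aqp4, Hopx and Vim, all higher in ethanol, where 1.2% of all genes were higher and 1.98% lower at that p, 3.18% in all, and 1.58% of genes in the brightest bin were higher. In 4 members, these and Fabp7, every ethanol array lay above every saline array, which was so for 5.74% of all genes and 12.9% of genes in the brightest bin. No member had its groups apart in the other direction, against 4.72% of all genes and 0.361% of the brightest bin. No member reached a fold of 1.2 either way. Both counts moved with single arrays. Without saline array 1 they were 7 and 17, where 5.83% and 27.3% of all genes, and 10.1% and 48.1% of the brightest bin, met the same conditions. The first count was 1 without ethanol array 1 or 2 or saline array 2 or 3, where 1.8% to 3.48% of all genes had such a p. The count of members with groups apart was 7 without ethanol array 2, where 16.7% of all genes and 16.1% of the brightest bin had groups apart. It was 11 without ethanol array 3, against 22.2% and 31.8%. With 3 arrays against 3, an exact permutation test of a single gene cannot give a two-sided p below 0.1.

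The direction shared by most members was also that of bright genes in general. Over all genes 57.2% were higher in ethanol, with a median difference of 0.02, but in the brightest bin 92.8% were higher, with a median of 0.08. Of the 21 members in that bin, 20 were higher and only Glul was lower, with a median of 0.11. Set beside the median of its own brightness bin, 19 members lay above it and 13 below it. The members' median distance from it was 0.02. Under cyclic loess, which removes a trend with brightness, the members' median was 0.02 with 19 of 32 higher, and that of the brightest bin was 0.01. Under quantile normalization the members' median was 0.03 with 24 higher, and that of the brightest bin was 0.02. After centring each array on its median, which moved the median of all rows to 0.04, the members' median was 0.13 with 31 higher, and that of the brightest bin was 0.12 with 97.3% higher.

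**Figure D1:**
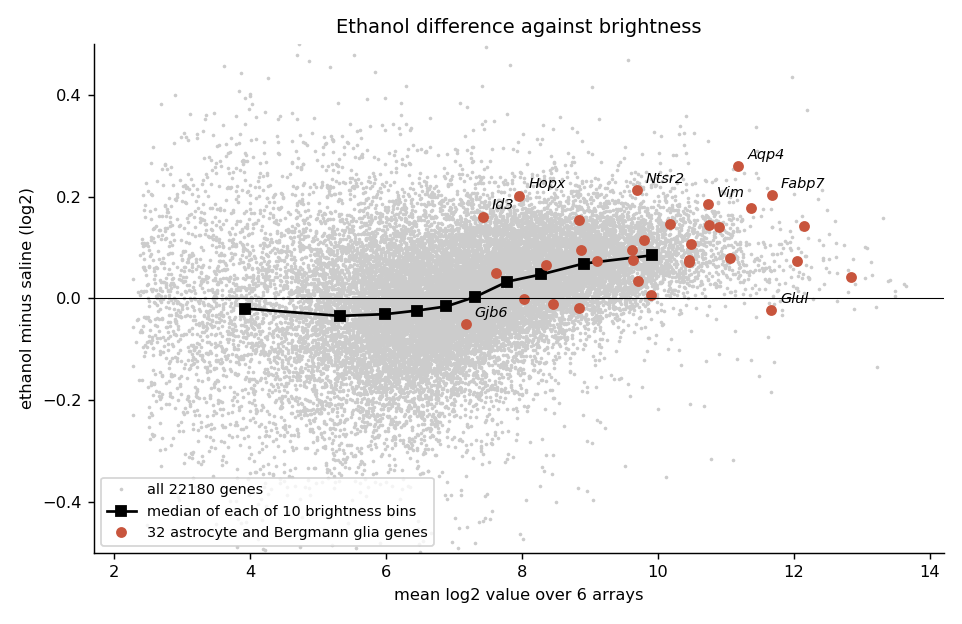
The y axis is the ethanol minus saline difference (log2) and the x axis the mean log2 value over 6 arrays; grey points are the 22180 genes, squares the medians of 10 brightness bins and red points the 32 astrocyte and Bergmann glia genes. The squares climb from -0.03 in the next-to-dimmest bin to 0.08 in the brightest, with 19 red points above the median of their own bin; 71 genes lie outside the plotted range of -0.5 to 0.5.

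The arrays differed among themselves by as much as the groups did. On ethanol array 2, 28 of the 32 genes lay above their own mean over the 6 arrays, and 16 had their highest value there. On saline array 2 only 1 gene lay above its mean, and 21 had their lowest value there. Of the other arrays, ethanol array 1 and saline array 3 went with their groups, while ethanol array 3 and saline array 1 did not. On ethanol arrays 1 and 3 the counts above the mean were 26 and 13, and on saline arrays 1 and 3 they were 24 and 7. The median deviation of the members was 0.05, 0.13 and -0.01 on ethanol arrays 1 to 3, and 0.06, -0.11 and -0.07 on saline arrays 1 to 3, so the groups overlapped. In the brightest bin of all genes the same deviations were 0.03, 0.09 and 0.00 in ethanol, and 0.01, -0.11 and -0.03 in saline. Ethanol array 2 had the widest spread of values over all rows (SD 2.03) and saline array 2 the narrowest (SD 1.97). Without both arrays numbered 2 the members' median difference was 0.02 with 19 of 32 higher, and without saline array 2 alone it was 0.04 with 24 higher. Without saline array 1 it was 0.14 with 30 higher. The part of this difference in spread between arrays in the members' common direction was not tested.

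**Figure D2:**
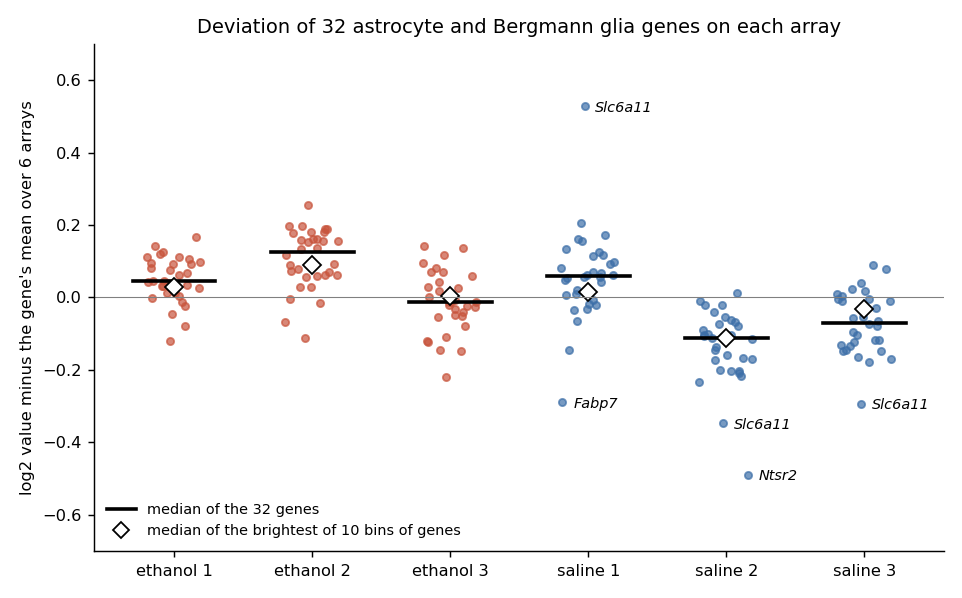
The y axis is a gene's log2 value minus its own mean over 6 arrays, shown for the 32 astrocyte and Bergmann glia genes on each array; bars mark the members' median and diamonds the median of the brightest bin of all genes. The members are mostly high on ethanol array 2 and low on saline array 2, while Slc6a11 and Fabp7 stand apart in opposite directions on saline array 1.

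Both intermediate filament genes had a higher mean in ethanol, as deposited and under each scaling tried. Gfap, the filament protein that defines astrocytes, lies on chromosome 11 from 102887336 to 102897200 (GRCm38). It measured 9.90, 10.001 and 9.68 on the ethanol arrays and 9.85, 9.71 and 9.67 on the saline arrays. The groups overlapped, with ethanol array 3 beside the lowest saline arrays, and the difference was 0.12 ± 0.11 (log2 ± SE, 3 arrays against 3; limma adjusted p = 0.877). Vim encodes vimentin, a filament protein of immature and reactive astrocytes that vessel and meningeal cells also make, and lies on chromosome 2 from 13574311 to 13582826. It measured 10.86, 10.82 and 10.82 in ethanol and 10.71, 10.63 and 10.61 in saline. Its groups did not overlap, and the difference was 0.19 ± 0.07 (unadjusted p = 0.0350, adjusted p = 0.857 in limma). A dimmer row that also names Vim had a difference of 0.09 ± 0.08 (unadjusted p = 0.310 in limma). Its groups were apart only narrowly, with the lowest ethanol array at 8.401 and the highest saline array at 8.396. Over the other settings Vim had an unadjusted p under 0.05 in 8 of 18. Under cyclic loess the Vim difference was 0.10, with an unadjusted p of 0.184.

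Water, ion and junction genes included the member with the largest difference. Aqp4, the water channel of astrocyte endfeet, lies on chromosome 18 from 15389394 to 15410982. It measured 11.33, 11.37 and 11.26 in ethanol and 11.04, 11.09 and 11.04 in saline. The lowest ethanol array lay above the highest saline array, with group means of 11.32 ± 0.06 and 11.06 ± 0.03 (SD, n = 3). The difference was 0.26 ± 0.07, a 1.197-fold difference, with an unadjusted p of 0.00869 and an adjusted p of 0.857 in limma. In the brightest bin of genes, 98.6% had a smaller difference, a description only, since Aqp4 is named here as the largest of the members. Over the 18 other settings tried the Aqp4 difference ranged from 0.17 under cyclic loess to 0.30. Its unadjusted limma p ran from 0.00344 to 0.0460, and its adjusted p passed the threshold in none.

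Other endfoot genes differed by less. Mlc1, a membrane protein of endfeet, differed by 0.14 ± 0.10, and the beta subunit of the sodium pump Atp1b2 by 0.14 ± 0.11. In Atp1b2 saline array 1 was the highest of all 6, at 12.30. Slc4a4, a sodium bicarbonate cotransporter, differed by 0.08 ± 0.08 and the tight junction gene Cldn10 by 0.05 ± 0.07. A further endfoot list held genes of the complex that anchors channels there, such as Dag1 and Dmd, together with water and ion channel genes and Hepacam. Its Aqp1 is also counted below with choroid plexus genes. Of the 13 measured genes of this mixed list, 9 were higher and 4 lower, with a median of 0.06. Under cyclic loess the median was 0.01 with 7 higher, and limma called 0 as deposited. None of these had an unadjusted p under 0.05, where 3.18% of all genes did. The smallest p were those of Dag1 (0.25 ± 0.14), the dystroglycan gene, Dtna (0.13 ± 0.08), a dystrobrevin, and Kcnj10 (0.16 ± 0.11), the endfoot potassium channel. In Dtna 1 saline array reached 10.45, just under the lowest ethanol array at 10.46. In Dag1 saline array 1 was the highest of all, at 10.22, beside 9.79 and 9.73 on the other saline arrays.

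The gap junction genes went apart in sign. Gja1, which encodes connexin 43, measured 10.49, 10.65 and 10.47 in ethanol and 10.47, 10.33 and 10.50 in saline, a difference of 0.11 ± 0.09. Gjb6, which encodes connexin 30, measured 7.05, 7.33 and 7.06 in ethanol and 7.23, 7.15 and 7.21 in saline. For Gjb6 the highest value of all 6 was that of ethanol array 2, while the other ethanol arrays were the lowest, and the difference of -0.05 ± 0.10 was the most negative of the 32. Neither gene had an unadjusted p under 0.05. Their difference from each other was not tested.

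Of the 5 genes of transmitter uptake and recycling, 4 had a higher mean in ethanol, but only 2 under cyclic loess, and in none were the groups apart. Slc1a2, the main glutamate transporter of forebrain astrocytes, measured 8.97, 8.95 and 8.85 in ethanol and 9.05, 8.71 and 8.73 in saline. Saline array 1 was the highest of all, and the difference was 0.09 ± 0.11. Without saline array 1 it was 0.21, with an unadjusted limma p of 0.0482, in a setting where 5.83% of all genes had a p under 0.05. Slc1a3, the glutamate transporter that Bergmann glia carry most of, measured 12.06, 12.19 and 12.02 in ethanol and 12.12, 11.95 and 11.98 in saline, a difference of 0.07 ± 0.09. Its groups overlapped too, and its sign turned under cyclic loess, at -0.02. Glul, glutamine synthetase, measured 11.67, 11.76 and 11.55 in ethanol and 11.80, 11.57 and 11.67 in saline. It was the only member of the brightest bin with a lower mean in ethanol, by -0.02 ± 0.10, and 3.83% of that bin had a smaller difference. Slc7a10, a transporter of small neutral amino acids such as serine, differed by 0.07 ± 0.08.

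Slc6a11, which encodes the GABA transporter GAT-3, varied most over the arrays. It measured 9.72, 9.90 and 9.42 in ethanol and 10.17, 9.29 and 9.35 in saline. The saline group held both the highest and the lowest values, with an SD of 0.49, and the difference was 0.08 ± 0.25. Without saline array 1 it was 0.36, with an unadjusted p of 0.0537, and without saline array 2 it was -0.08. The transcription factor Tcf7l2, named here after its values were seen, was high on the same array, at 8.47, while the other 5 arrays lay between 7.00 and 7.17. The part of that array's difference in Slc6a11 was not tested.

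**Figure D3:**
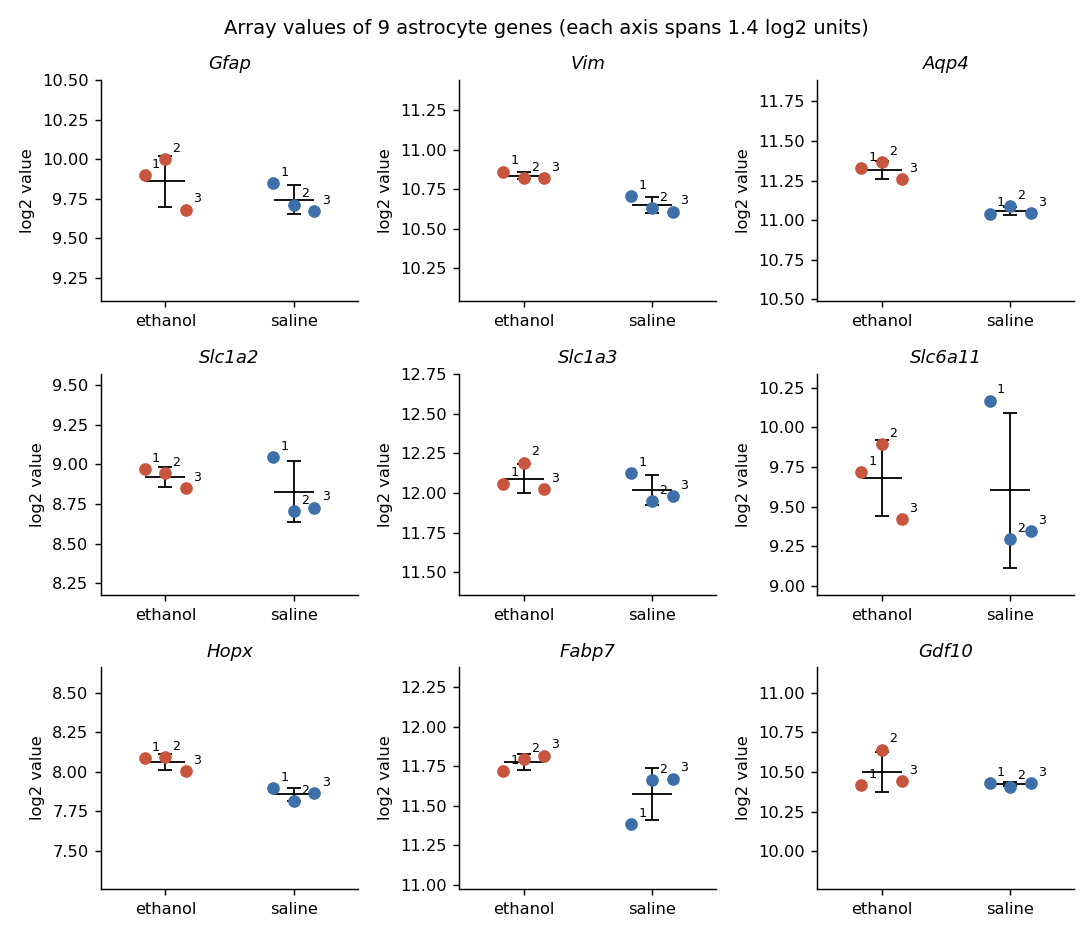
Each panel plots the log2 values of 1 gene on the 3 ethanol and 3 saline arrays, numbered by array, with the group mean and SD in black; every y axis spans 1.4 log2 units. The groups are apart in Vim, Aqp4, Hopx and Fabp7 and overlap in Gfap, Slc1a2, Slc1a3, Slc6a11 and Gdf10.

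Of the 6 metabolic genes, 4 had a higher mean in ethanol and 2 a lower one, with a median of 0.02, and under cyclic loess 2 were higher with a median of -0.04. Aldh1l1, a folate enzyme used as a general astrocyte marker, measured 8.88, 8.90 and 8.98 in ethanol and 8.89, 8.63 and 8.78 in saline. Saline array 1 lay inside the ethanol range, and the difference was 0.15 ± 0.09 (limma adjusted p = 0.857). Pla2g7, a lipase that degrades platelet-activating factor, differed by 0.14 ± 0.09. Aldoc, the brain aldolase, differed by 0.04 ± 0.08 and the fatty acid activating enzyme Acsbg1 by 0.01 ± 0.07. Acsbg1 was also the steadiest member, with an SD of 0.04 over the 6 arrays. Ppp1r3c, a glycogen-targeting phosphatase subunit, differed by -0.00 ± 0.08, and Dio2, which activates thyroid hormone, by -0.01 ± 0.11. A dimmer row naming Dio2 had a difference of 0.06 ± 0.14.

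All 7 genes of transcription and signalling had a higher mean in ethanol, except Gdf10 under cyclic loess, with a median difference of 0.16 as deposited and 0.09 under cyclic loess. Hopx, a small homeodomain protein of radial glia and Bergmann glia, lies on chromosome 5 from 77086986 to 77115123. It measured 8.08, 8.09 and 8.003 in ethanol and 7.90, 7.82 and 7.87 in saline. Its groups did not overlap, and the difference was 0.20 ± 0.07 (unadjusted p = 0.0271, adjusted p = 0.857 in limma). That was larger than in 98.2% of genes in its brightness bin. Hopx is among the members with the smallest p, so this place is a description only. Over the other settings the Hopx difference ranged from 0.16 to 0.24, with an unadjusted p under 0.05 in 12 of 18. Ntsr2, a neurotensin receptor, had a difference of 0.21 ± 0.16, and measured 9.86, 9.79 and 9.75 in ethanol and 9.78, 9.20 and 9.77 in saline. That difference came mostly from saline array 2, and was 0.02 without it. Gpr37l1, an orphan receptor of astrocytes, differed by 0.18 ± 0.11 and Id3, an inhibitor of helix-loop-helix factors, by 0.16 ± 0.10. Both had an unadjusted p under 0.05 in limma only when saline array 1 was left out, at 0.0202 and 0.0305. In that setting 5.83% of all genes and 10.1% of the brightest bin had such a p. Sox9, a factor that specifies glia, differed by 0.09 ± 0.11 and the growth factor receptor Fgfr3 by 0.07 ± 0.12.

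The 3 members most used for Bergmann glia did not behave alike on the arrays. Gdf10, a BMP-family ligand, lies on chromosome 14 from 33923587 to 33936514. It measured 10.41, 10.64 and 10.44 in ethanol and 10.43, 10.41 and 10.43 in saline. The saline values were tight, the ethanol values overlapped with them, and the difference was 0.08 ± 0.09. Fabp7, the brain lipid-binding protein of radial glia and Bergmann glia, lies on chromosome 10 from 57784923 to 57788450. It measured 11.72, 11.79 and 11.82 in ethanol and 11.39, 11.67 and 11.67 in saline. Its groups did not overlap, with a difference of 0.20 ± 0.10 (unadjusted p = 0.0838, adjusted p = 0.857 in limma). Saline array 1 was the lowest by far, and without it the difference was 0.11. Hopx, given above, had no such single low array. Whether the differences of these genes differ from each other was not tested. Of the cerebellar neuron genes 13 of 16 were higher, at a median of 0.09, and 8 of 16 under cyclic loess with a median of 0.00. Their array medians ran from 10.58 to 10.60 in ethanol and from 10.38 to 10.57 in saline, and their part in the Bergmann glia values was not tested.

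The remaining 5 members encode binding or secreted proteins, Fabp7 among them, of which 4 had a higher mean in ethanol as deposited and 2 under cyclic loess. S100b, the calcium-binding protein, measured 10.29, 10.37 and 10.10 in ethanol and 10.30, 9.97 and 10.06 in saline. Saline array 1 again lay within the ethanol range, and the difference was 0.15 ± 0.12. The chaperone clusterin, Clu, differed by 0.07 ± 0.07 and the serine protease Htra1 by 0.03 ± 0.10. Timp3, a metalloproteinase inhibitor that vessel walls and choroid plexus also make, measured 8.86, 8.73 and 8.91 in ethanol and 9.05, 8.77 and 8.74 in saline. Its difference was -0.02 ± 0.11, and without saline array 1 it was 0.08.

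**Figure D4:**
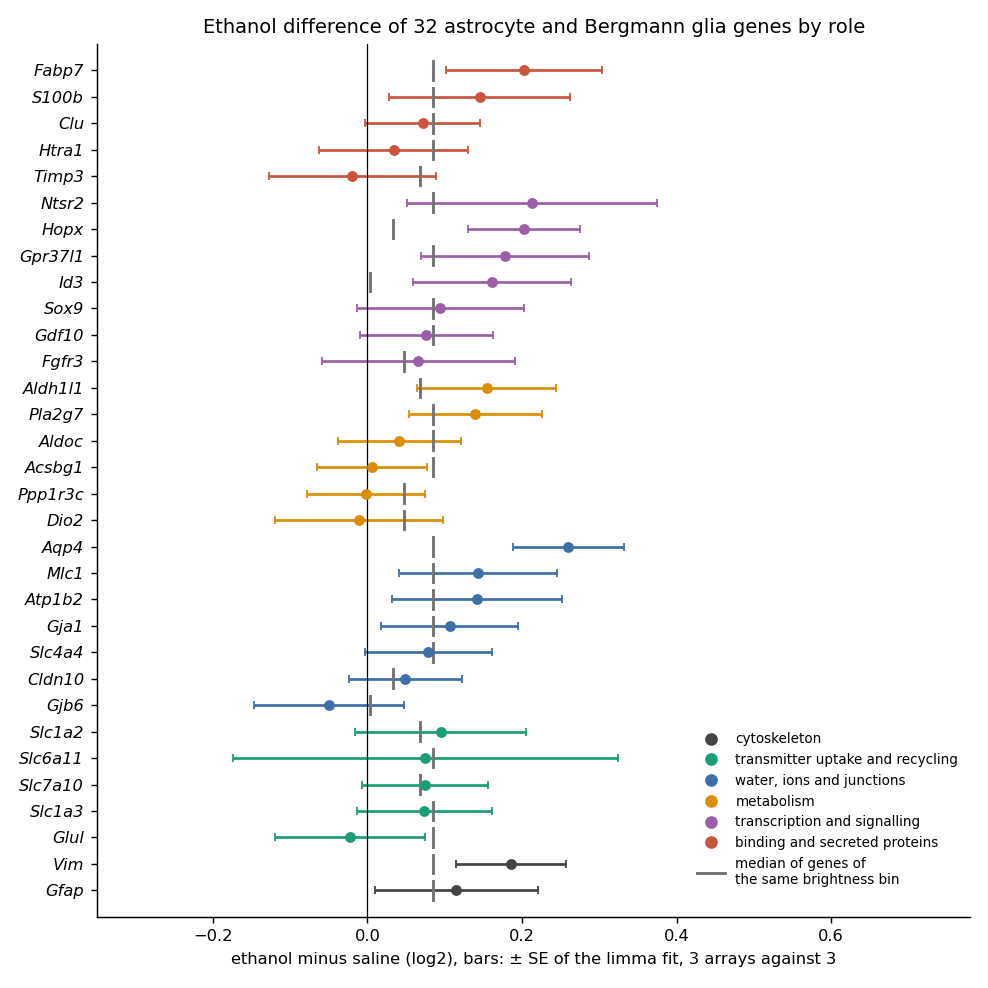
The x axis is the ethanol minus saline difference (log2) with the SE of the limma fit, 3 arrays against 3, for the 32 genes on the y axis coloured by role; grey ticks mark the median difference of genes in the same brightness bin. Aqp4 is farthest to the right at 0.26 and Gjb6 farthest to the left at -0.05, and most bars reach their grey tick.

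The promoters of Vim, Fabp7 and Hopx, whose groups did not overlap, are shown with that of Gfap, the defining gene of the class. Aqp4, the other member with groups apart, is named only. Every ethanol array also lay above every saline array in 5.74% of all genes and 12.9% of the brightest bin, so this choice is for display. The sequences are the 250 bases before the gene's start, 5′ to 3′ on the gene's strand, from RefSeq on GRCm38.p6, which held 33 such windows for 28 of the 32 genes. Capitals mark matches on either strand to the TATA box (TATAAA), a STAT motif (TTCNNNGAA), a SOX motif (AACAAT) or an RBPJ motif (TGGGAA), chosen as factors known from gliogenesis and from reactive astrocytes, with the TATA box for reference. Gfap is from chr11:102897201-102897450 on the minus strand, Vim from chr2:13574061-13574310 on the plus strand and Fabp7 from chr10:57784673-57784922 on the plus strand. Hopx has 2 starts on the minus strand, with windows at chr5:77115124-77115373 and chr5:77095268-77095517.
Gfap: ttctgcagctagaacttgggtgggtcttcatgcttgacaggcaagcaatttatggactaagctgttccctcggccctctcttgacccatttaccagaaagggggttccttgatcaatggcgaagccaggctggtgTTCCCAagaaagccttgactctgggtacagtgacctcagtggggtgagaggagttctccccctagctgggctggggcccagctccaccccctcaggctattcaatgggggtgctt
Vim: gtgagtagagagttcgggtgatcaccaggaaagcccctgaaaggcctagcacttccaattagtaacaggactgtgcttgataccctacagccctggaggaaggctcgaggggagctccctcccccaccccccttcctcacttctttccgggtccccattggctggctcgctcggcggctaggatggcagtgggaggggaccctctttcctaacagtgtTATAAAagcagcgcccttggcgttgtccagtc
Fabp7: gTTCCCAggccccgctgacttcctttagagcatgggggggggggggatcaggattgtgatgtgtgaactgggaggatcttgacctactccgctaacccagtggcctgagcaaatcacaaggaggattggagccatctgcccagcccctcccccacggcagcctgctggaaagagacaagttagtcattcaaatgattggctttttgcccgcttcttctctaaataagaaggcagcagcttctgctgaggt
Hopx upstream start: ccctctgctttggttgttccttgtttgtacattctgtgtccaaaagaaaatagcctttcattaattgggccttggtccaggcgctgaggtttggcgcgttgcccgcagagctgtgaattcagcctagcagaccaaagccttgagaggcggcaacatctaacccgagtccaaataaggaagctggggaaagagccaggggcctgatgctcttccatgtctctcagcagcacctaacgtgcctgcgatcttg
Hopx downstream start: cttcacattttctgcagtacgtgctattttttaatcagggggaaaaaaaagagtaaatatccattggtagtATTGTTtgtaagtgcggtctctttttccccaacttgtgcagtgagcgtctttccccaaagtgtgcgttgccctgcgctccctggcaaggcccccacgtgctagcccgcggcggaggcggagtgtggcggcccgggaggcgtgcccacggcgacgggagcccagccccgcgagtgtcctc

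Vim carried a TATA box, and the RBPJ letters stood in Gfap and Fabp7, where none overlapped another motif searched. The SOX letters stood before the downstream start of Hopx only, and its upstream window held no match. Over all 33 member windows, the TATA box was in 3, or 9.09%, against 12.4% of 32851 windows of all genes. The STAT letters were in 5, or 15.2%, against 7.02%, and stood before Acsbg1, Aldoc, Ntsr2, Pla2g7 and Slc1a3. The RBPJ letters were in 11, or 33.3%, against 21.6%, and the SOX letters in 1, or 3.03%, against 9.42%. A match here is a run of letters and no evidence of a bound factor, and none of these shares was tested.

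A wider list of astrocyte genes outside the 32 held 45 measured genes of 48, of which 31 were higher in ethanol and 14 lower, with a median difference of 0.05. That direction turned with the scaling, with 23 of 45 higher under quantile normalization and 21 of 45 under cyclic loess, where the medians were 0.00 and -0.00. Limma called 0 of them, and 3 had an unadjusted p under 0.05, all higher, against 1.2% of all genes. These were Tlr3, a sensor of double-stranded RNA, at 0.29 ± 0.09, the urea transporter Slc14a1 at 0.22 ± 0.09, and Lcat, which esterifies cholesterol on lipoproteins, at 0.29 ± 0.11. In each the 3 ethanol arrays lay above the 3 saline arrays. That was so for 5 of the 45, and for 5.74% of all genes and 12.9% of the brightest bin. Of 30 measured genes of reactive astrocytes, out of 34 listed, 13 were higher and 17 lower, with a median of -0.02 and 0 calls, but 18 were higher under median centring, quantile normalization or cyclic loess, with medians from 0.01 to 0.02. No gene of that list had an unadjusted p under 0.05. The smallest were those of the inhibitor Timp1 (0.16 ± 0.09), Aspg (-0.13 ± 0.08) and the immunoproteasome subunit Psmb8 (-0.15 ± 0.09). Lcn2, a secreted siderophore-binding protein that reactive astrocytes and neutrophils make, was chosen after its values were seen. It stood at 8.004 on saline array 1 and between 6.76 and 6.88 on the other arrays. Other genes of that list were also highest on saline array 1, such as Cxcl10 at 6.753 and Iigp1 at 6.145. Others were not, such as Timp1, which was lowest there at 5.881. The genes of the list highest on that array were not counted. Gfap on saline array 1 was 9.85, within the ethanol range. Serpina3n, a protease inhibitor of reactive astrocytes, differed by 0.03 ± 0.12.

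Regional astrocyte genes did not separate the groups as lists. Of the telencephalic genes, Mfge8 had a difference of 0.14 ± 0.07 with the groups apart and ethanol higher, as in 5.74% of all genes. Lhx2 was at -0.02 ± 0.12 and Emx2 at -0.19 ± 0.11. Of the non-telencephalic genes, Sparc was at 0.06 ± 0.08, Agt at -0.01 ± 0.10 and Itih3 at -0.05 ± 0.13, all with overlapping groups. None had an unadjusted p under 0.05.

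Other cell types that share the tissue were read beside the members. Endothelial and mural genes, of the vessels that astrocyte endfeet line, were higher in 11 of 12 cases with a median of 0.12, and in 11 under cyclic loess with a median of 0.09. Their array medians ran from 8.09 to 8.38 in ethanol and from 8.07 to 8.23 in saline. For oligodendrocytes 9 of 11 genes were higher as deposited, at a median of 0.03, but 2 of 11 under cyclic loess, at -0.05. For their precursors 5 of 8 were higher, at 0.04, and 3 of 8 under cyclic loess, at -0.01. For microglia 4 of 11 were higher, at a median of -0.04, and under cyclic loess 3, at -0.08. Meningeal fibroblast genes were higher in 4 of 8 cases and choroid plexus and ependymal genes in 3 of 8, both with a median of -0.01. Under cyclic loess both medians were -0.02, with 2 and 3 of 8 higher, and after median centring both were 0.03. Limma called 0 genes of each. At an unadjusted p under 0.05 there were the precursor genes Vcan (0.25 ± 0.08) and C1ql1 (0.33 ± 0.12), both higher, the microglial purine receptor P2ry13 (-0.29 ± 0.08), and 0 genes of the other 4 cell types. Over all genes 1.2% were higher and 1.98% lower at that p, 3.18% in all. Several of these cells also make Vim, Timp3, Id3 or Clu, and their part in the members' values was not tested.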

How the data were processed

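Total RNA from 6 pools of 3 mice was hybridized to 1 array each, from 200 ng per the labels' protocols. The authors deposited log2 values, 1 per probe row, with background correction, summarization and normalization not given in the sources used here. Differences that these steps may have compressed stay so. That the scale is log2 was inferred from the values. The build named in the submitters' processing notes is mm 10. The platform annotation supplied gene names: 23521 rows named 1 gene, 1814 several and 16010 none. All 32 members matched RefSeq by Entrez identifier, and positions are those of GRCm38.

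Groups came from the sample titles. All 41345 rows were fitted by limma 3.58.1 (R 4.3.3), using lmFit and eBayes with neither covariate nor filter and two-sided p-values, with Benjamini-Hochberg adjustment over all rows at 0.05. SEs are from that fit. Genes were ranked by mean into 10 equal brightness bins. The number of arrays limits the precision, and p-values measure the spread between pools only.

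The members, lists and tests were chosen with earlier results of these data known. Members described array by array were those with an unadjusted p under 0.05, the 3 largest differences in each direction and 11 defining genes, and from each other list up to 3 genes with the smallest p were eligible. Slc6a11 was added after its values were seen, and genes given only for their level or an outlying array were chosen in the same way. The motifs were chosen by hand. Alternatives covered scaling, prior, filters, array weights, the replicate block, the row per gene and left-out arrays.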

Additional observations from a re-analysis of the deposited data

How the results depend on the processing

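Limma called 0 of the 32 genes in each of 18 other settings, and 0 of all rows except without saline replicate 3, so leaving out 1 array gave 0 to 1 rows. Members with an unadjusted p under 0.05 numbered 1 with the replicate block (2.28% of all genes), 1 without both arrays numbered 2 (1.74%), and 1 to 7 leaving out 1 array. The 7 came without saline array 1, where 5.83% of all genes and 10.1% of the brightest bin had such a p; the 1 came without ethanol array 1 or 2 or saline array 2 or 3 (1.8% to 3.48% of all genes). Members with groups apart numbered 7 with median centring (11.9% of all genes, 18% of the brightest bin), 9 without both arrays numbered 2 (28.6% and 23.4%) and 4 to 17 leaving out 1 array, where fewer arrays make separation likelier by construction. They were 17 without saline array 1 (27.3% and 48.1%), 11 without ethanol array 3 (22.2% and 31.8%) and 7 without ethanol array 2 (16.7% and 16.1%). The members' median difference ran from 0.02 to 0.14, and members above the median of their brightness bin numbered 15 to 22 in the settings fitted to all rows.

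The titles give no litter and pair no arrays beyond their numbers. The correlations of the deviations from the group means were 0.10, -0.06 and 0.04 for same-numbered arrays. For the other pairs they ran from -0.13 to 0.10. Whether same-numbered arrays shared a litter or a batch was not tested. With the replicate block, Aqp4 alone had an unadjusted p under 0.05, at 0.0271.

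Of 576 member values in other settings 44 changed sign, in 14 genes, and limma called none of them. With median centring, which raises every ethanol minus saline difference by the same amount, these were Glul (0.0164), Ppp1r3c (0.0377), Dio2 (0.0279) and Timp3 (0.0193). With quantile normalization they were Acsbg1 (-0.0613), Htra1 (-0.0377) and Clu (-0.0050). With cyclic loess they were Slc1a3 (-0.0153), Aldoc (-0.0475), Slc4a4 (-0.0065), Acsbg1 (-0.0719), Gdf10 (-0.0057), Htra1 (-0.0420), Clu (-0.0106) and Slc6a11 (0.00). Timp3 was 0.0059 with array weights, and Dio2 0.0268 as the mean of its rows and 0.0646 by its more variable row. Without both arrays numbered 2 they were Slc1a3 (-0.0104), Aldoc (-0.0268), Gja1 (-8e-04), Fgfr3 (-0.0686), Acsbg1 (-0.0266), Gdf10 (-0.0025), Htra1 (-0.0788) and Slc6a11 (-0.189). Leaving out 1 array, the ranges were -0.0799 to 0.0389 for Glul, -0.0917 to 0.0602 for Dio2, -0.0761 to 0.0779 for Timp3, -0.0130 to 0.0338 for Acsbg1, -0.0351 to 0.0433 for Ppp1r3c, -0.0162 to 0.164 for Fgfr3, -0.0477 to 0.0814 for Htra1, -0.0801 to 0.358 for Slc6a11 and -0.0060 to 0.0831 for Aldoc. Apart from the scalings and the left-out arrays, the cause was not tested.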

Other observations

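Saline array 1, on which Slc6a11 was highest and Fabp7 lowest, was also read with a list of 15 thalamic genes written after its values had been seen. All 15 were measured and 10 had their highest value there, where 6 of the 32 astrocyte and Bergmann glia genes did. Some did so narrowly, such as Adarb1 at 10.359 beside 10.358 on ethanol array 3. Since the list followed from that array's values, the count is a description only, and the share over all genes was not counted. The median of saline array 1 minus the mean of the other 5 arrays was 0.17 over this list, 0.07 over the 32 astrocyte and Bergmann glia genes and 0.02 over all genes. Within the list it was 1.38 for the transcription factor Tcf7l2, 0.56 for Slc17a6, a vesicular glutamate transporter, and -0.25 for the phosphatase Ptpn3. Among the 32 genes it ran from -0.35 for Fabp7 to 0.63 for Slc6a11, with Timp3 at 0.25 and Slc1a2 at 0.21. These are values of 1 pool of 3 mice and have no replicate.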
